A study of Mus musculus with 6 samples.

Results

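The SLC25 genes encode the mitochondrial carriers, a family of membrane proteins that move metabolites across the mitochondrial inner membrane. They were read from RNA sequencing of primary mouse adipocytes as every gene symbol that begins with Slc25a and a number, which gave 47 of the 35976 genes in the table. The uncoupling proteins Ucp1, Ucp2 and Ucp3 belong to the same family but carry other symbols, and were counted apart. All cells had the genotype Ppargc1a(fl/fl), in which Ppargc1a, the gene of the transcriptional coactivator PGC-1alpha, lies between loxP sites that Cre recombinase can excise. They were given adenovirus, then siRNA, and were then differentiated. Cells with Cre virus and Rbm43 siRNA (Cre-siRbm43), GFP virus and Rbm43 siRNA (GFP-siRbm43) and GFP virus and control siRNA (GFP-siControl) were sequenced in 2 libraries each, described as biological duplicates. Nothing in the labels ties a library to a separate animal, so p-values measure the spread between these libraries. Cre virus with control siRNA was not analysed here, so the response to Cre virus is seen only beside Rbm43 siRNA.

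As background, most carriers of the family share a fold of membrane helices in repeats and exchange one solute for another. In fat cells they link the matrix to the cytosol. The ADP/ATP carriers and the phosphate carrier supply ATP synthase, the citrate carrier exports carbon for fatty acid synthesis, and the carnitine carrier admits acylcarnitines for oxidation. Others import cofactors such as coenzyme A and NAD, or carry amino acids, iron and glutathione. PGC-1alpha acts with the estrogen-related receptors and nuclear respiratory factors on the promoters of many genes for mitochondrial proteins. The product of Rbm43 binds RNA.

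Promoter windows of 4 carriers are printed to show the DNA before genes that differed between the groups (Slc25a5, Slc25a20, Slc25a34) and before the paralog of Slc25a5 that passed the test in no comparison (Slc25a4). Each runs from 250 bases before the RefSeq start site to 50 after it, 5′ to 3′ on the gene's strand, in GRCm38.p6 coordinates. Capitals mark a match to one of the motifs named below. Slc25a20 and Slc25a34 were the only members with such a match, and windows of other carriers that differed are not printed. The windows lie at chrX:36795347-36795646 on the plus strand (Slc25a5), chr8:46211013-46211312 on the minus strand (Slc25a4), chr9:108661886-108662185 on the plus strand (Slc25a20) and chr4:141623785-141624084 on the minus strand (Slc25a34).
Slc25a5: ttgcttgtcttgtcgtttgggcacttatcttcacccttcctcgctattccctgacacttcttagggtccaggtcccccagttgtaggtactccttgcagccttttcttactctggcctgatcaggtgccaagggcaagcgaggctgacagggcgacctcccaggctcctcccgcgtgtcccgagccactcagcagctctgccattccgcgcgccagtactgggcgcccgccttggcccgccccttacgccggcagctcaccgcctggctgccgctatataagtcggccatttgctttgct
Slc25a4: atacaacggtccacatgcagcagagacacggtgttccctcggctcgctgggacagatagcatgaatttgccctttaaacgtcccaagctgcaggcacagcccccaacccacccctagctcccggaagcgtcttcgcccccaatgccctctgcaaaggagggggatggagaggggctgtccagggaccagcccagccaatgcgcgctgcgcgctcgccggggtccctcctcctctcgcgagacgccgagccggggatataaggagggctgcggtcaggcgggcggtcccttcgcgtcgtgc
Slc25a20: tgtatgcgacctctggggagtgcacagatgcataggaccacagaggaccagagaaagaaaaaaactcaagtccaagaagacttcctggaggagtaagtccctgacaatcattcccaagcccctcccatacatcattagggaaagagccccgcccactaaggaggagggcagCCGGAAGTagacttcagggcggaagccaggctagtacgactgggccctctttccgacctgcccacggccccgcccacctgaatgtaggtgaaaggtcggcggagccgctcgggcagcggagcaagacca
Slc25a34: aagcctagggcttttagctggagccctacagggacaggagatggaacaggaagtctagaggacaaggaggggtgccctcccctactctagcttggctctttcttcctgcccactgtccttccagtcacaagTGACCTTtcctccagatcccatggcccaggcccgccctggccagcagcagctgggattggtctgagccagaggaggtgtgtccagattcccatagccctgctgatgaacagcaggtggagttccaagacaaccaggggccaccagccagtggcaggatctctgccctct

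RefSeq promoters were found for 36 of the 47 members, 46 promoters in all, and were searched on both strands. The core element of the estrogen-related receptors, AAGGTCA, was in 1 member promoter, that of Slc25a34, where it reads TGACCTT on the gene's own strand at −119 from the start site. It occurred in 4.72% of 32851 mouse promoters of the same length. The longer form TCAAGGTCA, which contains the core element, was in 0 member promoters and 0.423% of all. The ETS site bound by GABPA, CCGGAAGT, was in 1 member promoter, that of Slc25a20 at −79, and in 3.89% of all. The consensus site of NRF1 was in 0 member promoters and in 0.971% of all. The median GC content of the 40 promoters of tested members was 59.8% with 16.5 CpG dinucleotides, against 52.7% and 7 over all promoters. These are matches of letters, and no binding was measured.

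Reads in genes numbered 15775398 to 21961724 per library. Values are normalized counts, which are reads divided by the size factor of their library. A single read came to between 0.878 and 1.217 of these units. Rbm43 had 53.8 and 32.5 normalized counts in Cre-siRbm43 cells, 43.7 and 46.6 in GFP-siRbm43 cells and 185 and 224 in GFP-siControl cells. Ppargc1a had 463 and 469 in Cre-siRbm43 cells, 399 and 423 in GFP-siRbm43 cells and 163 and 202 in GFP-siControl cells. Ppargc1a was thus not lower with Cre virus, and a count over the whole gene does not check whether the loxP-flanked part was excised. All 10 adipocyte markers listed were detected, Adipoq and Plin1 among them.

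A gene was tested if it reached 10 normalized counts in at least 2 libraries, which 40 of the 47 carriers did (85.1%, against 39.5% of all genes in the table). Slc25a41, Slc25a48 and Slc25a54 were at 0 in all 6 libraries. Slc25a2, Slc25a18, Slc25a21 and Slc25a31 stayed under the minimum, at 0 to 6.15 normalized counts. They encode an ornithine carrier, a glutamate carrier, an oxodicarboxylate carrier and the ADP/ATP carrier of the male germ line.

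Divided by transcript length, tested carriers in GFP-siControl cells ran from 5432 normalized counts per kb for the ADP/ATP carrier Slc25a5 to 9.22 for Slc25a29. The latter carries basic amino acids. The span was 589-fold among tested carriers, and those under the minimum lay lower. Next to Slc25a5 came the phosphate carrier Slc25a3 at 3864 per kb and the citrate carrier Slc25a1 at 3828 per kb. The libraries of these 2 overlapped, at 3738 and 3989 per kb for Slc25a3 and at 3700 and 3956 per kb for Slc25a1, so their order is not settled. Counting all annotated exons instead of 1 transcript put Slc25a3 at rank 4, and Slc25a53 in place of Slc25a29 as the lowest tested carrier. Below them stood the ADP/ATP carrier Slc25a4 (2713 per kb), the dicarboxylate carrier Slc25a10 (1686 per kb), the glutathione carrier Slc25a39 (1419 per kb) and the carnitine carrier Slc25a20 (1356 per kb). The libraries of Slc25a39 and Slc25a20 also overlapped. The first 3 carriers made up 51.8% of the family's per-kb level in Cre-siRbm43 cells, 52.3% in GFP-siRbm43 cells and 49.0% in GFP-siControl cells. Glutamate carrier Slc25a22 and coenzyme A carrier Slc25a42 lay lower, at 333 and 115 per kb.

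**Figure D1:**
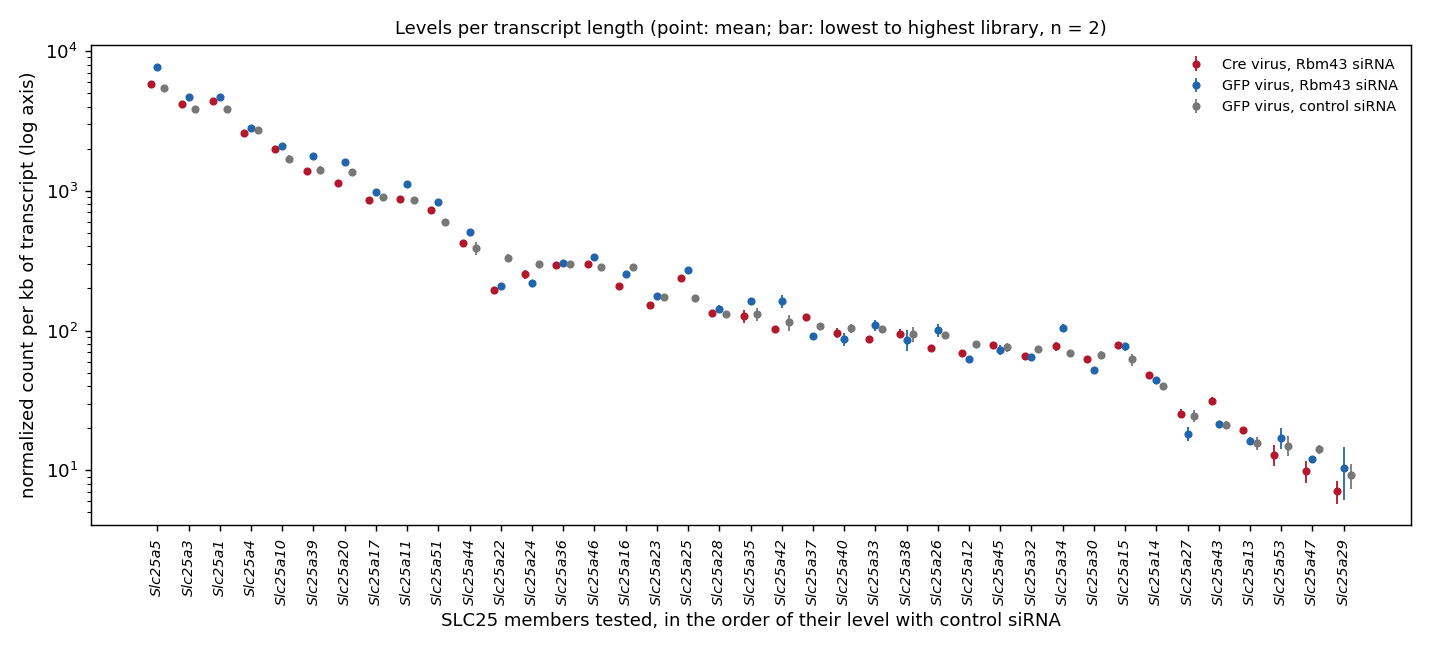
Level of the tested carriers described per kb of transcript (log axis), ordered by GFP-siControl cells; points are means of 2 libraries and bars run between them. Slc25a5 stands highest at 5432 per kb in GFP-siControl cells and Slc25a29 lowest at 9.22.

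The first comparison asked what Rbm43 siRNA does to the carriers with GFP virus. The ADP/ATP carrier Slc25a5 (1.41-fold), the NAD carrier Slc25a51 (1.41-fold) and the coenzyme A carrier Slc25a42 (1.42-fold) were higher. The glutamate carrier Slc25a22 (0.631-fold) and the ATP-Mg/phosphate carrier Slc25a24 (0.720-fold) were lower. Of 40 carriers tested, 14 rose and 5 fell, against 13.5% of all 14211 genes rising and 9.76% falling. The rising carriers were 35% of those tested and the falling ones 12.5%. The median log2 difference was 0.11 over the carriers and −0.01 over all genes. Of the carrier calls, 3 passed 1.5-fold, and the share of all genes that did so was not counted. Carriers together held 0.312% and 0.318% of normalized counts in GFP-siRbm43 cells, against 0.276% and 0.264% in GFP-siControl cells. Their summed count was 18.8% higher, and Slc25a5 supplied 28.6% of the net difference. DESeq2 called 14 rising and 3 falling carriers, and without a mean-variance trend in the fit 5 rose and 3 fell. Over all genes, 3301 were called, and 2115 without GFP-siRbm43 replicate 2.

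The second comparison asked what Cre virus, given to excise Ppargc1a, does when Rbm43 siRNA is present. Lower carriers were Slc25a42 for coenzyme A (0.630-fold), Slc25a20 for carnitine (0.704-fold) and the ADP/ATP carrier Slc25a5 (0.761-fold). Only the iron carrier Slc25a37 was called higher, at 1.38-fold. Of the 40 carriers 10 fell (25%) and 1 rose (2.5%), against 5.88% of all genes falling and 2.62% rising. The median log2 difference was −0.15 over the carriers and 0.00 over all genes. Carriers held 0.276% and 0.282% of normalized counts in Cre-siRbm43 cells, against 0.312% and 0.318% in GFP-siRbm43 cells. Their summed count was 12.9% lower, with 28.6% of the net difference in Slc25a5 and 10.7% in Slc25a20. Over all genes 372 were higher and 836 lower (30.8% of calls higher), or 565 and 734 with libraries scaled to equal totals (43.5% higher).

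This comparison depended on single libraries more than the first. Without Cre-siRbm43 replicate 1 or replicate 2, 5 carriers fell in either case, and 312 and 329 genes were called in all, against 1208. Without GFP-siRbm43 replicate 2, 6 carriers fell and 468 genes were called. Without either GFP-siControl library, which enters only through the shared spread, 18 fell and 2 rose, and 2060 and 2068 genes were called. Slc25a5, Slc25a11 and Slc25a20 were called lower, and Slc25a37 higher, whichever library was left out. Without a mean-variance trend in limma, 0 genes were called, 2355 had an unadjusted p under 0.05, and edgeR and DESeq2 called 1336 and 838.

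The third comparison set Cre-siRbm43 cells against GFP-siControl cells, which differ in both virus and siRNA. ATP-Mg/phosphate carrier Slc25a25 (1.40-fold) and NAD carrier Slc25a51 (1.22-fold) were higher, and Slc25a22 (0.587-fold) and Slc25a16 (0.727-fold), which is linked to coenzyme A transport, were lower. Of the 40 carriers 5 rose (12.5%) and 4 fell (10%), against 8.47% and 6.28% of all genes, so the carriers' shares lay near the background. The median log2 difference was −0.03 over the carriers and −0.00 over all genes, and their summed count was 3.49% higher. Without Cre-siRbm43 replicate 1, 2 carriers rose, 2 fell and 770 genes were called, against 2096. Without Cre-siRbm43 replicate 2, 2 rose and 827 genes were called. Calls of Slc25a25, Slc25a51, Slc25a22 and Slc25a16 held whichever library was left out. The comparisons share libraries pairwise, so their values are given side by side below and are not independent of each other.

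**Figure D2:**
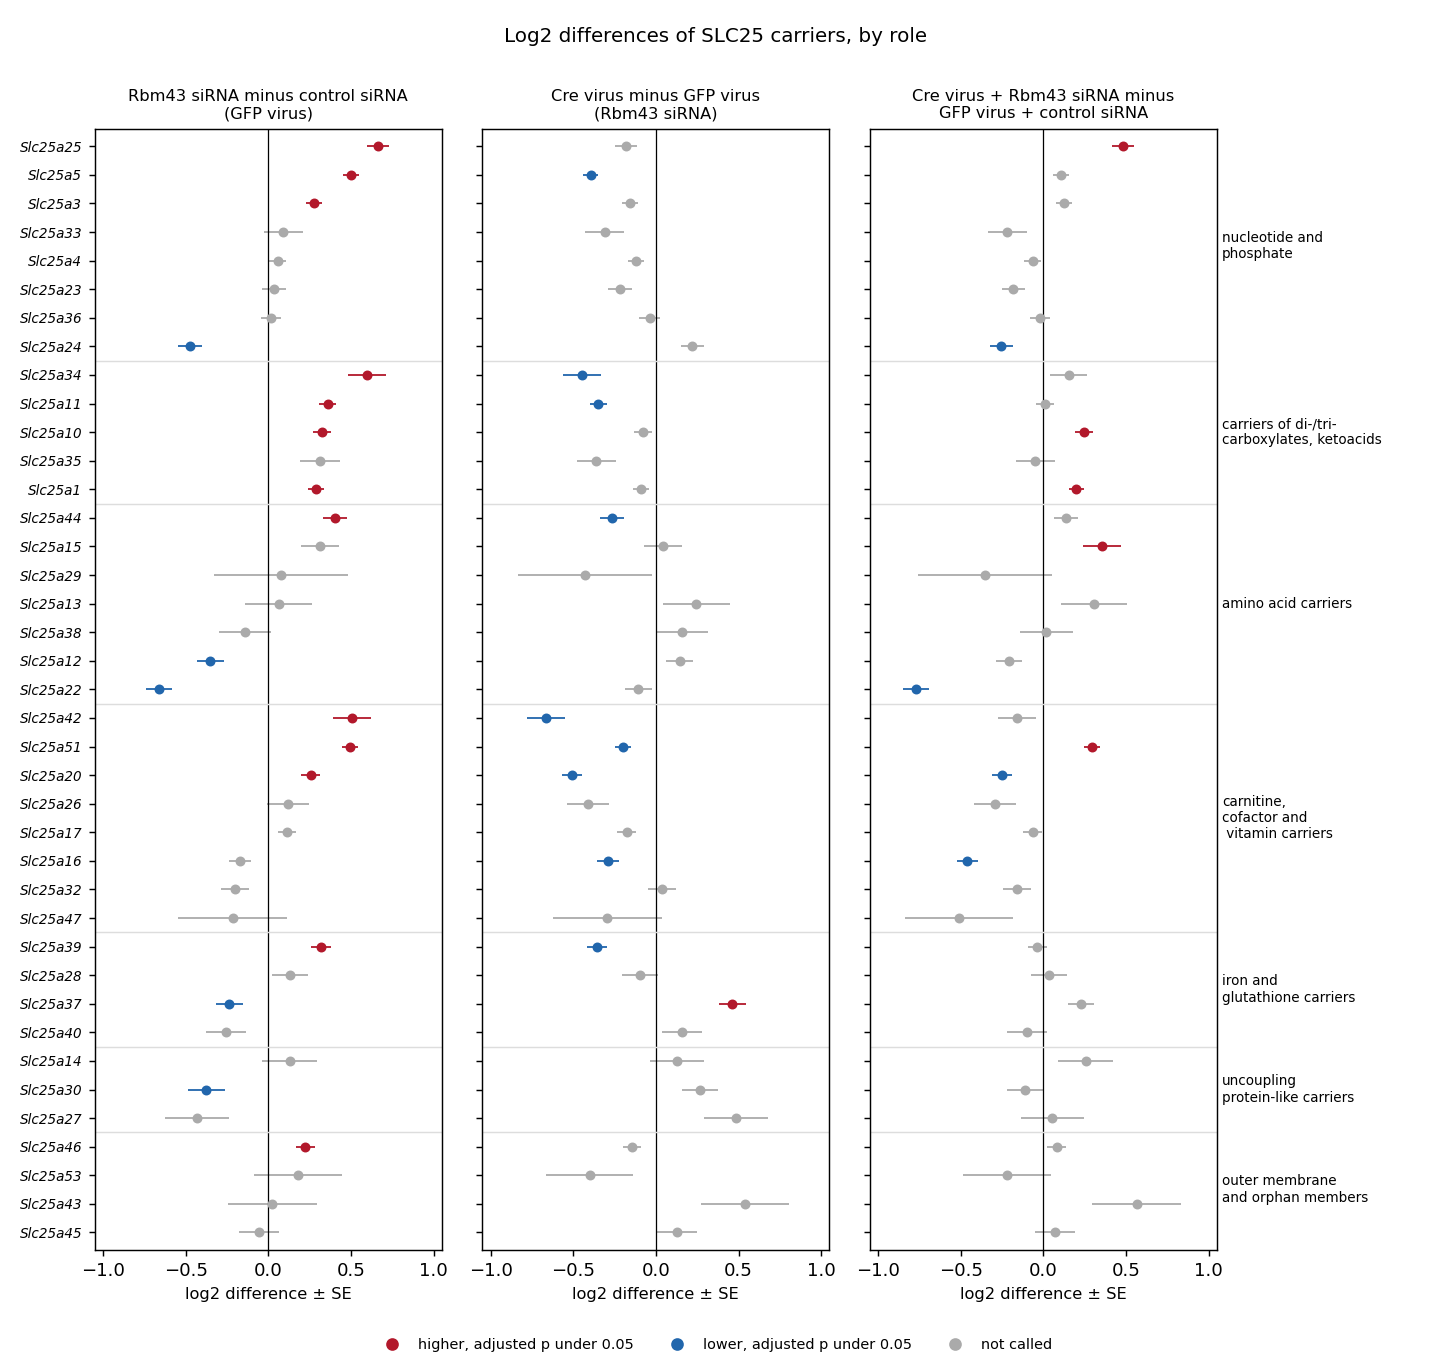
Log2 difference with its standard error for the tested carriers described, grouped by role, in the 3 comparisons; red is called higher, blue called lower and grey not called. Grey points are the most numerous in each panel. Among called carriers, red points outnumber blue ones in the left panel, where Slc25a25 reaches 0.66. Blue points outnumber red ones in the middle panel, where Slc25a42 is at −0.67.

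Nucleotide and phosphate carriers came first by level. Slc25a5 had 7041 and 7466 normalized counts in Cre-siRbm43 cells, 9454 and 9604 in GFP-siRbm43 cells and 6809 and 6662 in GFP-siControl cells. Both GFP-siRbm43 libraries were above all others. The log2 difference was 0.50 ± 0.047 (SE) with Rbm43 siRNA (limma adjusted p = 2.21e-07), −0.39 ± 0.047 with Cre virus (adjusted p = 2.63e-05) and 0.11 ± 0.047 in the third comparison (adjusted p = 0.146). Slc25a4, the ADP/ATP carrier that predominates in heart and muscle, had 4962 and 5010 in Cre-siRbm43 cells, 5349 and 5500 in GFP-siRbm43 cells and 5443 and 5001 in GFP-siControl cells. It was called in no comparison, at 0.06 ± 0.050 with Rbm43 siRNA (adjusted p = 0.472) and −0.12 ± 0.050 in Cre-siRbm43 over GFP-siRbm43 cells (adjusted p = 0.161). The second value was called in 3 alternatives, among them a limma fit of only the 2 groups compared (adjusted p = 0.0315). The first value was −0.0051 without GFP-siControl replicate 2.

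Slc25a3, which brings in phosphate for ATP synthesis, had 6570 and 6999 normalized counts in Cre-siRbm43 cells, 7609 and 7488 in GFP-siRbm43 cells and 6431 and 6026 in GFP-siControl cells. It rose by 0.28 ± 0.050 on the log2 scale with Rbm43 siRNA (limma adjusted p = 0.000355). With Cre virus the difference was −0.15 ± 0.050 (adjusted p = 0.0622), and it passed the threshold without either GFP-siControl library.

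The ATP-Mg/phosphate carriers, which are regulated by calcium, parted in direction. Slc25a25 had 793 and 772 normalized counts in Cre-siRbm43 cells, 910 and 862 in GFP-siRbm43 cells and 570 and 549 in GFP-siControl cells. It was higher in every library with Rbm43 siRNA, by 0.66 ± 0.067 with GFP virus (limma adjusted p = 6.12e-07) and 0.48 ± 0.067 in Cre-siRbm43 over GFP-siControl cells (adjusted p = 4.81e-05). Slc25a24 went the other way, with 807 and 935 in Cre-siRbm43 cells, 758 and 731 in GFP-siRbm43 cells and 1015 and 1055 in GFP-siControl cells. It fell by 0.47 on the log2 scale with Rbm43 siRNA (SE 0.072, adjusted p = 6.38e-05) and was −0.25 in the third comparison (adjusted p = 0.0219, 0.0957 with DESeq2 and 0.396 without Cre-siRbm43 replicate 1). Slc25a23 of the same subfamily (509 to 603 normalized counts over all libraries) and the pyrimidine nucleotide carriers Slc25a33 (163 to 224) and Slc25a36 (1483 to 1652) were called in no comparison.

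**Figure D3:**
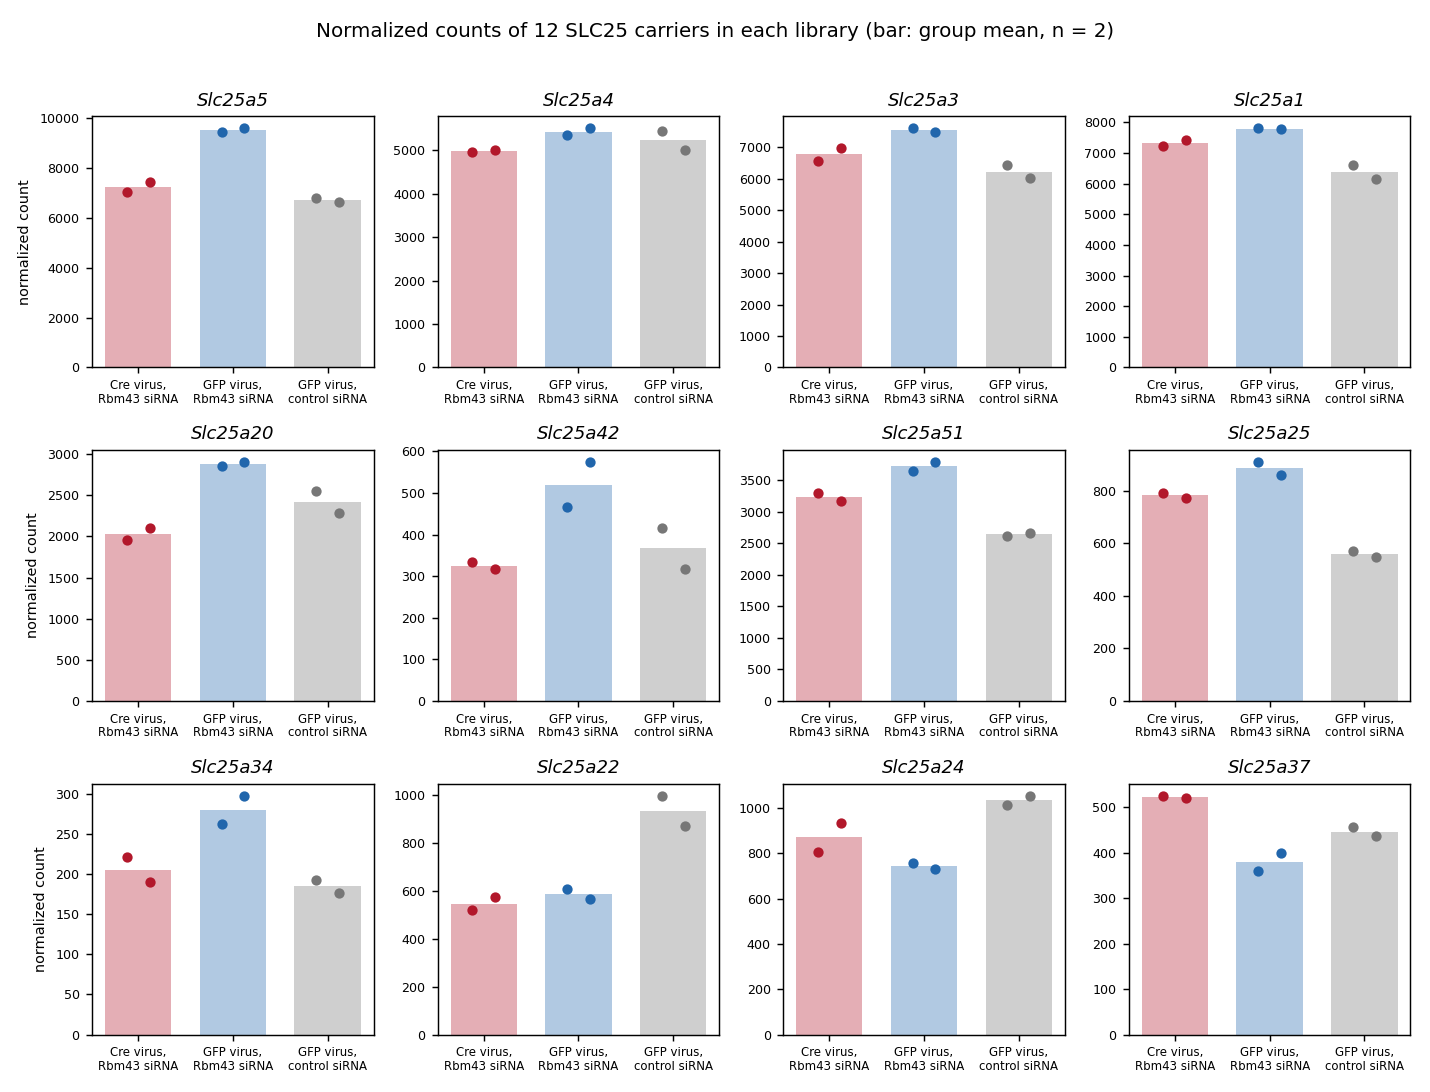
Normalized counts of 12 carriers in each library; points are libraries and bars are group means (n = 2), with Cre virus and Rbm43 siRNA on the left, GFP virus and Rbm43 siRNA in the middle and GFP virus and control siRNA on the right. Slc25a5 reaches 9454 and 9604 in the middle group, and Slc25a22 stands at 1000 and 870 on the right, above its 4 other libraries.

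Carriers of di- and tricarboxylates had 4 of 5 tested members higher with Rbm43 siRNA, against 13.5% of all genes tested. The citrate carrier Slc25a1 had 7235 and 7410 normalized counts in Cre-siRbm43 cells, 7801 and 7766 in GFP-siRbm43 cells and 6591 and 6164 in GFP-siControl cells. Its log2 difference was 0.29 ± 0.047 with Rbm43 siRNA (limma adjusted p = 0.000161), −0.09 ± 0.047 with Cre virus (adjusted p = 0.31) and 0.20 ± 0.047 in the third comparison (adjusted p = 0.00681). The dicarboxylate carrier Slc25a10 had 3976 and 4090 normalized counts in Cre-siRbm43 cells, 4262 and 4254 in GFP-siRbm43 cells and 3623 and 3196 in GFP-siControl cells. For both genes the GFP-siControl libraries were lowest and the GFP-siRbm43 libraries highest. The differences of Slc25a10 were 0.32 ± 0.056 (adjusted p = 0.000246), −0.08 ± 0.056 (not called) and 0.24 ± 0.056 (adjusted p = 0.00492). Leaving out Cre-siRbm43 replicate 1 or 2 ended these calls in the third comparison for both genes, at adjusted p of 0.0863 and 0.146 for Slc25a1 and 0.0687 and 0.121 for Slc25a10.

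Slc25a11, which exchanges oxoglutarate for malate in the malate-aspartate shuttle, had 1485 and 1498 normalized counts in Cre-siRbm43 cells, 1890 and 1905 in GFP-siRbm43 cells and 1483 and 1476 in GFP-siControl cells. Cre-siRbm43 and GFP-siControl libraries were close to each other, and the GFP-siRbm43 libraries stood above them. It rose by 0.36 ± 0.053 with Rbm43 siRNA (limma adjusted p = 5.08e-05) and fell by 0.35 with Cre virus (SE 0.053, adjusted p = 0.0003). Slc25a34, an orphan carrier placed in this group, had 221 and 190 in Cre-siRbm43 cells, 262 and 298 in GFP-siRbm43 cells and 192 and 176 in GFP-siControl cells. It rose by 0.60 ± 0.114 with Rbm43 siRNA (adjusted p = 0.000685) and was −0.45 ± 0.114 with Cre virus (adjusted p = 0.0176). That second call was lost without Cre-siRbm43 replicate 1 (0.059) or 2 (0.299), without GFP-siRbm43 replicate 2 (0.246) and with DESeq2 (0.0671). Its paralog Slc25a35 was called in no comparison, at 0.31, −0.36 and −0.05.

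Carriers of carnitine, cofactors and vitamins had 4 of 9 tested members higher and 0 lower with Rbm43 siRNA, and 5 lower and 0 higher with Cre virus. Over all genes tested, 13.5% were higher and 9.76% lower with Rbm43 siRNA, and 5.88% lower and 2.62% higher with Cre virus. Slc25a20, the carnitine-acylcarnitine carrier, had 1962 and 2098 normalized counts in Cre-siRbm43 cells, 2860 and 2906 in GFP-siRbm43 cells and 2551 and 2283 in GFP-siControl cells. All 3 groups were apart, and Cre-siRbm43 cells were lowest. The log2 difference was 0.26 ± 0.058 with Rbm43 siRNA (limma adjusted p = 0.00309), −0.51 ± 0.058 with Cre virus (adjusted p = 1.99e-05) and −0.25 ± 0.058 in the third comparison (adjusted p = 0.00593, and 0.179 without Cre-siRbm43 replicate 1).

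Slc25a42, which imports coenzyme A, had 335 and 316 normalized counts in Cre-siRbm43 cells, 465 and 575 in GFP-siRbm43 cells and 416 and 318 in GFP-siControl cells. Its replicates were wide apart in both GFP groups, and the GFP-siRbm43 libraries were above all others. It rose by 0.51 ± 0.115 with Rbm43 siRNA (limma adjusted p = 0.00306, and 0.089 without GFP-siRbm43 replicate 2). It fell by 0.67 on the log2 scale with Cre virus (adjusted p = 0.000869, and 0.0551 without Cre-siRbm43 replicate 2).

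Slc25a51, the NAD carrier, had 3292 and 3173 normalized counts in Cre-siRbm43 cells, 3642 and 3787 in GFP-siRbm43 cells and 2613 and 2664 in GFP-siControl cells. Every library with Rbm43 siRNA was above those with control siRNA, by 0.49 ± 0.049 with GFP virus (limma adjusted p = 5.22e-07) and by 0.29 ± 0.049 in Cre-siRbm43 over GFP-siControl cells (adjusted p = 0.000367). With Cre virus it was −0.20 ± 0.049 (adjusted p = 0.0137), a call lost without either Cre-siRbm43 library (0.118 and 0.265) or GFP-siRbm43 replicate 2 (0.177).

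Slc25a16 differed in pattern, and stood lowest with Cre virus and highest with control siRNA. It had 647 and 653 normalized counts in Cre-siRbm43 cells, 804 and 785 in GFP-siRbm43 cells and 880 and 910 in GFP-siControl cells. Its log2 difference was −0.17 with Rbm43 siRNA (limma adjusted p = 0.064), −0.29 with Cre virus (adjusted p = 0.00695) and −0.46 in the third comparison (adjusted p = 5.26e-05), each with an SE of 0.065. Leaving out any library of the second comparison ended that call, at adjusted p of 0.0529 to 0.124. Slc25a17 of peroxisomes, the S-adenosylmethionine carrier Slc25a26, the folate carrier Slc25a32 and Slc25a47 were called in no comparison.

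Amino acid carriers held the largest fall of the family with Rbm43 siRNA. The glutamate carrier Slc25a22 had 522 and 574 normalized counts in Cre-siRbm43 cells, 609 and 569 in GFP-siRbm43 cells and 1000 and 870 in GFP-siControl cells. Both Rbm43 siRNA groups overlapped each other and lay below control siRNA. It fell by 0.66 on the log2 scale with GFP virus (SE 0.079, limma adjusted p = 4.3e-06) and was −0.77 ± 0.079 in the third comparison (adjusted p = 1.65e-06), while with Cre virus it was −0.11 ± 0.079 (not called). Slc25a12, an aspartate-glutamate carrier of the malate-aspartate shuttle, had 426 and 451 in Cre-siRbm43 cells, 403 and 391 in GFP-siRbm43 cells and 521 and 492 in GFP-siControl cells. It fell by 0.35 with Rbm43 siRNA (SE 0.080, adjusted p = 0.00308).

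Slc25a44 carries branched-chain amino acids and is known from brown fat. It had 1464 and 1512 normalized counts in Cre-siRbm43 cells, 1747 and 1835 in GFP-siRbm43 cells and 1498 and 1223 in GFP-siControl cells. GFP-siControl replicate 1 lay among the Cre-siRbm43 libraries and replicate 2 below them. The log2 difference was 0.40 ± 0.073 with Rbm43 siRNA (limma adjusted p = 0.00043) and −0.27 ± 0.073 in the second comparison (adjusted p = 0.0274). Leaving out any library of the second comparison ended that call, at adjusted p of 0.0627 to 0.305. In the third comparison it was 0.14 ± 0.073 (adjusted p = 0.245), with 0.28 and a call without GFP-siControl replicate 1 and −0.0099 without replicate 2. The ornithine carrier Slc25a15 was called in the third comparison only, at 0.36 (adjusted p = 0.0434, 0.209 with DESeq2, and 0.132 to 0.333 without either Cre-siRbm43 library or GFP-siControl replicate 1). Slc25a13, Slc25a29 and Slc25a38 were called in no comparison.

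Among iron and glutathione carriers, Slc25a37 and Slc25a39 moved in opposite directions. Slc25a37 (mitoferrin-1) had 526 and 519 normalized counts in Cre-siRbm43 cells, 360 and 398 in GFP-siRbm43 cells and 457 and 436 in GFP-siControl cells. The GFP-siRbm43 libraries were lowest and the Cre-siRbm43 libraries highest. It was 0.46 ± 0.081 with Cre virus (limma adjusted p = 0.001) and −0.24 ± 0.081 with Rbm43 siRNA (adjusted p = 0.0431). The second of these calls was lost without GFP-siControl replicate 1 (0.111), GFP-siRbm43 replicate 1 (0.308) or either Cre-siRbm43 library (0.0846 and 0.0845), and with DESeq2 (0.219). Slc25a39, which brings glutathione into mitochondria, had 2287 and 2365 in Cre-siRbm43 cells, 3006 and 2950 in GFP-siRbm43 cells and 2546 and 2237 in GFP-siControl cells. It rose by 0.32 ± 0.058 with Rbm43 siRNA (adjusted p = 0.000457) and was −0.36 ± 0.058 with Cre virus (adjusted p = 0.00055, and 0.0514 without Cre-siRbm43 replicate 1). Slc25a28 (mitoferrin-2) and Slc25a40 were called in no comparison.

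Of the uncoupling protein-like carriers, Slc25a30 had 227 and 220 normalized counts in Cre-siRbm43 cells, 198 and 174 in GFP-siRbm43 cells and 229 and 254 in GFP-siControl cells. It was −0.37 ± 0.110 with Rbm43 siRNA (limma adjusted p = 0.0183), a call lost without GFP-siControl replicate 2 (0.1), without GFP-siRbm43 replicate 2 (0.178) and with DESeq2 (0.13). Slc25a14 and Slc25a27 were called in no comparison. Slc25a46, an outer membrane protein of the family, rose by 0.22 ± 0.055 with Rbm43 siRNA (adjusted p = 0.00573), with 1456 and 1459 in GFP-siRbm43 cells against 1251 and 1243 in GFP-siControl cells. Slc25a43, Slc25a45 and Slc25a53 were called in no comparison. In all, 19 of the 40 tested carriers were called in none, and the matching share over all genes was not counted.

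Ratios of paralogous carriers within a library do not depend on the size factor, and are given without a test. Slc25a4 over Slc25a5 was 0.705 and 0.671 in Cre-siRbm43 cells, 0.566 and 0.573 in GFP-siRbm43 cells and 0.799 and 0.751 in GFP-siControl cells. The 3 groups did not overlap. Slc25a37 over Slc25a28 was 2.49 and 2.58 in Cre-siRbm43 cells, 1.73 and 1.71 in GFP-siRbm43 cells and 2.35 and 2.09 in GFP-siControl cells, lowest in GFP-siRbm43 cells. Slc25a25 over Slc25a24 was 0.983 and 0.826 in Cre-siRbm43 cells, 1.20 and 1.18 in GFP-siRbm43 cells and 0.561 and 0.520 in GFP-siControl cells. The first of these genes was the more counted only in GFP-siRbm43 libraries, on counts not divided by length. Slc25a12 over Slc25a13, the aspartate-glutamate carriers, was 7.37 and 7.14 in Cre-siRbm43 cells, 7.41 and 8.22 in GFP-siRbm43 cells and 9.63 and 11.2 in GFP-siControl cells. Slc25a39 over Slc25a40, at 7.21 to 14.0 over all libraries, and Slc25a33 over Slc25a36, at 0.105 to 0.146, had overlapping GFP-siRbm43 and GFP-siControl libraries in the second of these pairs and overlapping Cre-siRbm43 and GFP-siControl libraries in the first.

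**Figure D4:**
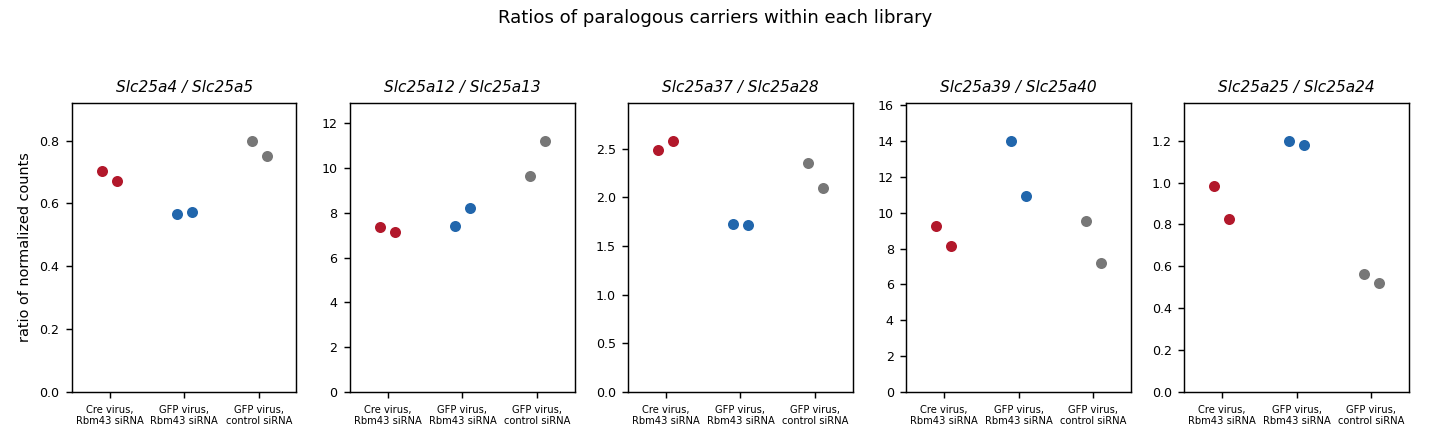
Ratio of normalized counts of paralogous carriers in each library, 1 point per library, with Cre virus and Rbm43 siRNA on the left and control siRNA on the right of each panel. Slc25a4 over Slc25a5 is lowest in the GFP-siRbm43 libraries, at 0.566 and 0.573.

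Partners of the carriers were read from gene lists put together by function. Over all genes tested, 13.5% rose and 9.76% fell with Rbm43 siRNA. With Cre virus 2.62% rose and 5.88% fell, and in the third comparison 8.47% rose and 6.28% fell. Counts of these short lists are to be read beside those shares. Among family members under other symbols, 3 of 5 rose and 0 fell with Rbm43 siRNA, 0 rose and 3 fell with Cre virus, and 2 rose and 1 fell in the third comparison. Ucp1, the proton leak of brown fat, was at 1.87 ± 0.087, −1.10 ± 0.087 and 0.77 ± 0.087 on the log2 scale in the 3 comparisons, and the first and second values were larger in size than any SLC25 difference of the same comparison. Ucp3 rose by 0.86 with Rbm43 siRNA and Mtch2, an outer membrane insertase, by 0.31. Of 14 tested ATP synthase subunits, which use the ADP and phosphate that Slc25a5, Slc25a4 and Slc25a3 deliver, 12 rose and 0 fell with Rbm43 siRNA, 0 rose and 11 fell with Cre virus, and 2 rose and 0 fell in the third comparison. Their median log2 differences were 0.38, −0.33 and 0.06. Atp5o, a stalk subunit, was at 0.50 and −0.42 in the first and second comparison.

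Of 20 enzymes paired with the carriers, 11 rose and 1 fell with Rbm43 siRNA, 0 rose and 11 fell with Cre virus, and 4 rose and 3 fell in the third comparison. Gpd1 of the glycerol phosphate shuttle (0.85, −0.35 and 0.51), citrate synthase Cs (0.58, −0.36 and 0.22) and ATP citrate lyase Acly (0.65, −0.24 and 0.41), which cleaves the citrate that Slc25a1 exports, were called in each. Pck2, which makes phosphoenolpyruvate in the matrix, was the one that fell with Rbm43 siRNA, at −0.43. Bckdha and Bckdhb, which oxidize branched-chain ketoacids, were −0.30 and −0.38 with Cre virus. Mdh1 (−0.44) and Mdh2 (−0.37) were also called lower there, with smaller p than Bckdha and Bckdhb. Of 18 other mitochondrial membrane transport proteins tested, 8 rose and 2 fell with Rbm43 siRNA, 0 rose and 7 fell with Cre virus, and 3 rose and 2 fell in the third comparison. The pyruvate carrier subunits Mpc2 (0.76 and −0.40) and Mpc1 (0.54 and −0.37) were among those called in the first and second comparison, as was Letmd1 (1.16 and −0.57). All 3 outer membrane channels, Vdac1, Vdac2 and Vdac3, rose with Rbm43 siRNA, by 0.35, 0.26 and 0.17, Vdac2 fell with Cre virus by 0.21, and Vdac1 was 0.23 in the third comparison.

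Markers of some cell types were called beside these groups, and those of others mostly were not. The shares over all genes were 13.5% rising and 9.76% falling with Rbm43 siRNA and 2.62% and 5.88% with Cre virus. In the third comparison they were 8.47% and 6.28%. Of 10 adipocyte markers 9 rose and 0 fell with Rbm43 siRNA, 0 rose and 7 fell with Cre virus, and 4 rose and 1 fell in the third comparison. Fabp4 alone averaged 160920 normalized counts in Cre-siRbm43 cells and 190800 in GFP-siRbm43 cells. The 10 markers summed to 341231 to 342931 in Cre-siRbm43 cells, 392481 to 406874 in GFP-siRbm43 cells and 295940 to 312719 in GFP-siControl cells. GFP-siRbm43 cells were highest, as in the carrier sum, which was 53151 to 54410 in Cre-siRbm43 cells, 61421 to 62029 in GFP-siRbm43 cells and 50660 to 53278 in GFP-siControl cells. Of 7 mural and smooth muscle markers 4, 5 and 6 rose in the 3 comparisons and 0 fell, with sums of 71374 to 74756 in Cre-siRbm43 cells, 59769 to 62466 in GFP-siRbm43 cells and 52168 to 57589 in GFP-siControl cells. Macrophage markers had 3 of 10 lower with Rbm43 siRNA, 0 called with Cre virus and 1 lower in the third comparison, with sums of 1867 to 1987 in Cre-siRbm43 cells, 1659 to 1955 in GFP-siRbm43 cells and 1896 to 1911 in GFP-siControl cells. Preadipocyte and fibroblast markers had 2 of 9 lower in the first and the third comparison and 0 called in the second, with sums of 38981 to 40122 in Cre-siRbm43 cells, 37487 to 39140 in GFP-siRbm43 cells and 38910 to 40548 in GFP-siControl cells. Of 6 endothelial markers 1 rose in the third comparison and 0 were called otherwise, with sums of 341 to 385 in Cre-siRbm43 cells, 297 to 320 in GFP-siRbm43 cells and 273 to 274 in GFP-siControl cells. Of 7 skeletal muscle markers 2 were tested, with 0 called in the first comparison and 1 higher in the second and the third. The higher one was Acta1, an actin of skeletal muscle, at 0.57 ± 0.081 in the second (limma adjusted p = 0.000152) and 0.62 ± 0.081 in the third (adjusted p = 2.59e-05). The list summed to 832 to 871 in Cre-siRbm43 cells, 538 to 625 in GFP-siRbm43 cells and 539 to 575 in GFP-siControl cells. Most of this was Acta1, which averaged 812 in Cre-siRbm43 cells and 549 in GFP-siRbm43 cells. Of the 7 markers, 5 were under 10 normalized counts in every library, with Ckm, Myh4 and Myog at 0. For lymphocytes, no marker was tested, with Cd3d and Ms4a1 at 0. In RNA from whole cultures, fewer cells of a type and less RNA per cell cannot be told apart. The part of the marker changes in the carriers' differences was not tested.

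Some counts may hold reads of other genes. Exons of Slc25a35 are overlapped over 31.3% of their length on the opposite strand by Rangrf, which averaged 61.5 normalized counts, and those of Slc25a11 over 8.9% by Rnf167, at 586. For Slc25a33 the share was 14.9%, by Gm13068, which has no row in the table. Lrig1, at 937, overlaps 3.0% of Slc25a26. The kit keeps the strand, but the strand setting of the counting is not given in the sources used here. Pseudogene transcripts at least 95% identical over 150 bases exist for Slc25a5 and Slc25a35 (2 each) and for Slc25a36 and Slc25a40 (1 each). None of these has a row in the table under its annotated name, so their share of the reads was not measured. Apart from pseudogenes, 382 bases of Slc25a37 are identical to Gm16867, which averaged 13.6 normalized counts. Slc25a12 shares 247 bases at 99.6% identity with an Adpgk transcript, whose gene averaged 644. Further overlaps and matches exist and are not listed.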

How the data were processed

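Total RNA from 6 libraries was prepared with a stranded mRNA kit and read as paired ends of 150 bases, per the labels' protocols. The authors deposited 1 table with a normalized signal per gene, which is a read count divided by a size factor for each library. Tools named in the submitters' processing notes, without roles, are DESeq2 2.11.40.7, STAR 2.7.8 and fastp 0.23.2, with mm10 as the build. Which counter and which annotation were used is not given in the sources used here. All deposited values (100%) were whole multiples of 1 read within 0.01 read, so reads were recovered for edgeR 4.0.16 and DESeq2 1.42.0 as alternatives.

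Genes with at least 10 normalized counts in at least 2 libraries (14211) were tested on the scale log2(normalized count + 1) in R 4.3.3 with limma 3.58.1 and its trend option. The fit had 1 mean per group over all 6 libraries, which left 3 residual degrees of freedom. P-values were adjusted over all genes by Benjamini-Hochberg, and a call is an adjusted p under 0.05. A log2 difference on this scale understates the change of low genes. Errors of log2 differences are standard errors of this fit, from 0.047 to 0.41 over the carriers. Carriers were read from that fit with no test on the list. Those described in full were up to 10 called in each direction per comparison, and Slc25a1, Slc25a3, Slc25a4, Slc25a5, Slc25a20 and Slc25a44. One tested carrier and one marker gene are included in the counts but not reported here. Members named from the partner lists are a selection, and are not always those with the smallest p. Family members and gene lists were chosen with earlier results of these data known. The procedure was run on simulated data as a check of the code, and no result here rests on it.

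Replicate numbers came from the sample titles and did not pair the libraries: deviations of libraries with the same number correlated at −0.037, −0.042 and 0.019. Replicates differed beyond counting noise in each group (chi-square per degree of freedom 1.77 with Cre virus and Rbm43 siRNA, 2.76 with GFP virus and Rbm43 siRNA, 4.19 with control siRNA). Transcript lengths, positions and overlaps came from GENCODE M21, near copies from BLAST+ 2.17.0, and promoters from RefSeq (GRCm38.p6). Other settings were pseudocounts of 0.5 and 5, a minimum of 50, no filter, other scalings, a replicate block, only the 2 groups compared, no trend, and each library left out.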

Additional observations from a re-analysis of the deposited data

How the results depend on the processing

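Counts of genes and carriers called stayed within 1.5 times the main value in 114 alternatives and did not in 39. Single values were followed only for the carriers chosen for full description in each comparison, and not for all tested. Of these, 683 kept their direction and side of the threshold, 72 kept the direction and lost the call, and 8 gained one. The 2 that reversed did so without GFP-siControl replicate 2 (Slc25a4 with Rbm43 siRNA, at −0.0051, and Slc25a44 in the third comparison, at −0.0099). Without replicate 1 of that group these were 0.12 and 0.28. Neither had been called. Alternatives named beside a carrier above are a selection, and not every setting that ended or gave its call. The call of Slc25a37 with Rbm43 siRNA was lost in 8 alternatives, and those of Slc25a34 and Slc25a44 with Cre virus in 6 each. In the third comparison the call of Slc25a15 was lost in 7 alternatives and that of Slc25a24 in 4.

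With Rbm43 siRNA, 3 carriers fell without a filter, with no mean-variance trend and with DESeq2, and 5 rose with no trend. Over all genes no trend called 1304 and DESeq2 2035. Leaving out each library gave 2115 to 3633 genes, 13 to 15 carriers rising and 4 to 6 falling. With Cre virus, no filter called 609 genes, a fit of only the 2 groups 2083 (18 carriers falling, 2 rising), and no trend 0 (0 and 0), with 2355 genes at an unadjusted p under 0.05. In this comparison 2 carriers rose under equal totals and with edgeR. Leaving out each library gave 312 to 2068 genes, 5 to 18 carriers falling and 1 to 2 rising. In the third comparison no filter called 1251 genes, DESeq2 1220 and no trend 433 (1 carrier rising, 2 falling). Leaving out each library gave 770 to 2654 genes, 2 to 7 carriers rising and 2 to 6 falling. The cause of these changes was not tested, except that leaving out a library or a group changes the spread estimate by construction. Other pseudocounts and a minimum of 50 kept every carrier count within 1.5 times.

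The replicate block, on numbers that do not pair the libraries, called 3412, 1304 and 2214 genes against 3301, 1208 and 2096, and 2 carriers rising with Cre virus. The SE over the carriers had a median of 0.080 and was largest, at 0.41, for Slc25a29, which had 11.4 to 29.1 normalized counts.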
